A study of Mus musculus with 6 samples.

Results

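Oxidative phosphorylation, the pathway by which mitochondria make ATP, was examined through the transcripts of its 5 complexes in donor HSPCs (hematopoietic stem and progenitor cells) that lacked Hemgn. Members were the protein-coding genes of the deposited table whose GENCODE M21 symbol begins with Nduf followed by a, b, c, s or v, with Uqcr, with Cox4 to Cox8 or with Atp5, the genes Sdha to Sdhd, and the mt-Nd, mt-Co, mt-Cytb and mt-Atp genes of the mitochondrial chromosome. This rule, which uses no measured value, took 102 of 24965 genes, 90 of them nuclear and 12 mitochondrial. Complexes were assigned by symbol alone. Complex I so holds 38 nuclear and 7 mitochondrial subunits, and complex II 4 nuclear subunits. Complex III holds 8 and 1, complex IV 15 and 3, and complex V 16 and 1. Ndufa4 and Ndufa4l2 stand under complex I for their names, and their place in that complex was not checked. The rule also takes in 8 assembly factors of complex I (the Ndufaf genes) and Atp5s, which are not subunits of the working complexes. The symbols Cox7b2, Cox8b, Cox8c and mt-Atp8 also fit these patterns, but no protein-coding gene of the deposited table carried them.

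Complexes I to IV pass electrons to oxygen and, except for complex II, pump protons across the inner mitochondrial membrane, and complex V uses the returning protons to make ATP. Complex II is encoded by nuclear genes throughout, whereas the other complexes join nuclear subunits, made in the cytosol and imported, to subunits transcribed and translated inside the organelle. Quiescent hematopoietic stem cells are known to rely largely on glycolysis and to turn towards oxidative phosphorylation as they divide and differentiate.

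The donors were whole-body Hemgn-/- mice, made with zinc finger nucleases on a C57BL/6 (CD45.2+) background, or WT littermates. The methods give male and female mice of 8 to 10 weeks. Bone marrow was transplanted into CD45.1+ recipients that had received a split irradiation dose of 9 Gy, so donor cells of both genotypes had passed through transplantation. RNA came from donor cells sorted 6 h after BMT, in 3 replicates of each genotype. GEO labels name donor cells that were lineage-negative and Sca-1+, the design text adds c-Kit+, and the labels and the design text also name different library kits. The labels do not say whether a replicate was 1 recipient or a pool, and the methods call the 3 replicates biological. P-values therefore measure the spread between these libraries.

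The values are FPKM, fragments per kilobase of exon scaled to the fragments of the library, and the libraries held 23668011 to 28897360 fragments as recovered from the steps between low values. The WT libraries held 5.64, 2.96 and 4.68 FPKM of Hemgn itself, and Hemgn-/- libraries 0.75, 0.91 and 1.60 FPKM (adjusted p = 0.0114, limma). The libraries were not made of stem cell transcripts alone. The 10 neutrophil and granulocyte precursor markers took 19.5% to 20.8% of the FPKM total in WT and 13.4% to 14.4% in Hemgn-/- libraries, with 5 of 10 tested lower and none higher at an adjusted p under 0.05. The 8 erythroid markers summed to 457 to 546 FPKM in WT and 29.8 to 49.9 FPKM in Hemgn-/- libraries. The 8 HSPC genes summed to 114 to 121 FPKM in WT and 145 to 152 FPKM in Hemgn-/- libraries, most of it from Ptprc (CD45), which all leukocytes carry, at 87.1 to 88.9 and 102 to 113 FPKM. Kit, a gene of the sort, was at 6.14, 6.36 and 7.24 FPKM in WT and at 5.50, 5.90 and 5.65 FPKM in Hemgn-/- libraries. Ly6a (Sca-1) was at 8.27 to 10.2 against 11.4 to 17.3 FPKM, and Mecom was under 1 FPKM in all 6. Eosinophil and basophil markers summed to 414 to 506 against 240 to 251 FPKM (3 of 7 called lower). Prg2 of this list was at 233 to 290 against 56.7 to 70.4 FPKM, but not all of its genes fell. Cpa3 was higher in Hemgn-/- libraries (53.4 to 56.4 against 60.8 to 74.6 FPKM), and Mcpt8 overlapped (89.6 to 120 against 97.5 to 105 FPKM). B cell markers summed to 1123 to 1184 against 1344 to 1518 FPKM (3 of 5 called higher) and plasmacytoid dendritic cell markers to 212 to 248 against 314 to 381 FPKM (2 of 6 called higher). Of the erythroid genes 4 of 7 tested were called lower, and of the HSPC genes 2 of 7 higher. T and NK cell markers (149 to 171 against 153 to 176 FPKM) and endothelial markers (16.1 to 17.2 against 17.3 to 20.8 FPKM) had no call. Macrophage and monocyte markers (162 to 163 against 146 to 155 FPKM) had 2 calls higher and 2 lower. Many of these lists thus moved with genotype, and the part of the lists in the results below was not tested. In such bulk libraries fewer cells of a type and less RNA per cell cannot be told apart.

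Reads of a mitochondrial gene can also match a nuclear copy of it. A stretch of mouse chromosome 1 holds copies of part of the mitochondrial genome, annotated as unprocessed pseudogenes, and sequence decides whether a read can be assigned to the gene or to its copy. In the GENCODE M21 transcripts (GRCm38), mt-Co2 (mitochondrial chromosome M, 7013 to 7696, plus strand, 1 exon) and its copy Gm28661 (chromosome 1, 24614885 to 24615565, minus strand) were identical over 681 of the 684 bases of the gene, and mt-Atp6 (M, 7927 to 8607, plus strand) and Gm10925 (chromosome 1, 24613974 to 24614651, minus strand) over 678 of 681. The 3′ ends are shown because the annotated copies stop there, short of the end of the gene. Capitals mark the bases of the gene past the end of the annotated copy. The sequence of chromosome 1 beyond that end was not compared, so these bases need not differ.
mt-Co2, bases 625 to 684: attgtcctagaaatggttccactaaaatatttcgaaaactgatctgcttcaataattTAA
Gm28661, bases 625 to 681: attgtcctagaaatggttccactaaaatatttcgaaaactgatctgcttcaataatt
mt-Atp6, bases 622 to 681: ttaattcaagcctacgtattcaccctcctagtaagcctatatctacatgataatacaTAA
Gm10925, bases 622 to 678: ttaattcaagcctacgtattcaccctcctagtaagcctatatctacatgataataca

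A read within the shared bases matches both places equally well. mt-Co3 was identical to Gm28437 over 783 of 784 bases and mt-Nd4l to Gm10222 over 294 of 297. The first 876 of 1378 bases of mt-Nd4 were identical to Gm28439. In 2 other pairs single bases tell gene and copy apart, at T3C between mt-Nd3 and Gm28438 and at 6 positions between mt-Co1 and Gm29216, which covers the last 492 of 1545 bases. These 6 are T1056A, C1057T, A1059G, A1060G, C1062A and A1066T. Base 1 is where the gene begins, and each token gives the gene's base, the position and the copy's base. They stand within 1 short stretch, shown with the differing bases in capitals.
mt-Co1, bases 1054 to 1076: ggTCtAAcCggaAttgttttatc
Gm29216, bases 1054 to 1076: ggATtGGcAggaTttgttttatc
mt-Nd3, bases 1 to 33: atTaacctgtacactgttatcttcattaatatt
Gm28438, bases 1 to 33: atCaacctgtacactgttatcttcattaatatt

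mt-Nd2 shared 3.19% of its stretches of 100 bases with a pseudogene, Gm13339. mt-Co1 also shared stretches with Gm13340 and mt-Co2 with Gm13341. The sums of gene and copy given below leave these out. For mt-Nd1, mt-Nd5, mt-Nd6 and mt-Cytb no stretch of 100 bases was shared with another annotated gene, so their reads could be assigned to them alone among the annotated transcripts. mt-Co1, mt-Cytb and mt-Nd1 made up 88.0% to 89.8% of the summed mitochondrial FPKM in every library, at 744 to 2147 FPKM each. The genes that are copied nearly whole, mt-Co2, mt-Co3, mt-Atp6, mt-Nd3 and mt-Nd4l, were at 54.7 FPKM or less in every library. The levels of these genes, and the fold changes drawn from them, are therefore uncertain. How the authors' counting treated reads with several matches is not given in the sources used here. Reads counted for neither gene nor copy would also be missing from the sums of gene and copy.

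The question put to the data was whether the transcripts of the 5 complexes differed between Hemgn-/- and WT donor HSPCs, by complex and by genome of origin. Of the 102 members, 93 were above 1 FPKM in at least 1 library and were tested (83 nuclear, 10 mitochondrial). Among them 3 genes, mt-Co2, mt-Atp6 and mt-Cytb, had an adjusted p under 0.05 (limma on log2(FPKM + 1), Benjamini-Hochberg over all 13739 genes tested). All 3 rose in Hemgn-/- HSPCs and all 3 are mitochondrial, against a background of 6.46% of all genes tested called in either direction, 4.37% higher and 2.09% lower (600 and 287 genes, or 341 and 386 under median-ratio scaling). No nuclear member passed. The median log2 fold change (Hemgn-/- minus WT) was 0.42 over the 10 mitochondrial and −0.0007 over the 83 nuclear members, beside 0.087 over all genes tested. Under median-ratio scaling the all-gene median was 0.0068 and the nuclear median −0.082, whereas with equal FPKM totals they were 0.16 and 0.070, so directions of nuclear lists hold only relative to all genes. The mitochondrial median lay 0.26 to 0.39 above and the nuclear median 0.033 to 0.13 below the all-gene median in all 17 alternatives. Some alternatives could hardly move these differences. Dropping the variance trend or adding a replicate term leaves the fold changes as they are, and rescaling whole libraries shifts both medians nearly alike.

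Fold changes on the log2(FPKM + 1) scale understate the change of genes near 1 FPKM. Leaving out WT replicate 1, WT replicate 3, Hemgn-/- replicate 2 or Hemgn-/- replicate 3, median-ratio scaling, quantile normalization, a test without a variance trend and no filter on low values each left no mitochondrial call. Without WT replicate 2 there were 5 calls and without Hemgn-/- replicate 1 there was 1 call. Rescaling all libraries to the same FPKM total gave 7 mitochondrial calls.

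mt-Cytb, the cytochrome b of complex III and its only mitochondrial subunit, lies at 14145 to 15288 of the mitochondrial chromosome. It shared no stretch of 100 bases with another annotated gene. It was at 1357.5, 1531 and 1529 FPKM in WT replicates 1, 2 and 3 and at 1940, 1703 and 1764 FPKM in Hemgn-/- replicates 1, 2 and 3. All 3 Hemgn-/- libraries stood above all 3 WT libraries, and the group means were 1472 ± 99.5 and 1802 ± 123 FPKM (SD, n = 3 each). The log2 fold change was 0.29 (SE 0.0719, adjusted p = 0.0496 from limma), the smallest of the 3 called and the closest to the threshold, and it was called in 4 of 17 alternatives.

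mt-Atp6, a membrane subunit through which protons pass in complex V, was at 37.1, 39.7 and 34.3 FPKM in WT and at 48.2, 54.7 and 46.7 FPKM in Hemgn-/- libraries. No value of one group lay within the range of the other, and it had a log2 fold change of 0.42 (SE 0.0917, adjusted p = 0.0326 from limma) and a call in 7 of 17 alternatives. Its copy Gm10925 was at 39.5, 52.7 and 42.3 FPKM in WT and at 58.0, 61.8 and 55.4 FPKM in Hemgn-/- libraries. Gene and copy together gave a log2 fold change of 0.40, and the adjusted p was 0.0402.

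mt-Co2, a copper-binding core subunit of complex IV that takes electrons from cytochrome c, was at 4.69, 4.40 and 3.90 FPKM in WT and at 6.45, 6.53 and 7.23 FPKM in Hemgn-/- libraries. This is 74 to 77 fragments in WT and 117 to 143 fragments in Hemgn-/- libraries, and the groups did not overlap. The log2 fold change was 0.54 (SE 0.116, adjusted p = 0.0301 from limma), with a call in 4 of 17 alternatives. Its copy Gm28661 was at 7.26, 4.88 and 3.97 FPKM in WT and at 4.87, 7.01 and 5.49 FPKM in Hemgn-/- libraries, which overlap. With the copy added the log2 fold change was 0.35 and the adjusted p was 0.211, so the call for mt-Co2 did not hold for gene and copy together.

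**Figure D1:**
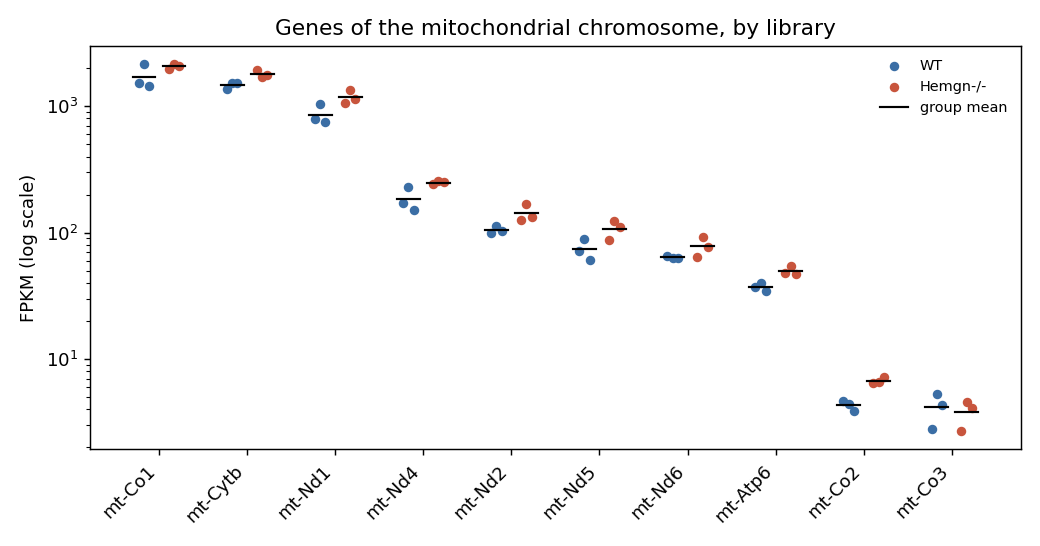
FPKM (log scale) of the 10 tested mitochondrial genes, ordered by mean level. Points are libraries (WT blue, Hemgn-/- red) and bars are group means. Every gene but mt-Co3 had the higher mean in Hemgn-/- HSPCs, and the groups did not overlap for 6 of the 10.

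Among the 7 mitochondrial subunits of complex I, 5 were tested and none passed. They form the proton-pumping membrane arm. mt-Nd1 was at 790, 1044 and 744 FPKM in WT and at 1062, 1342 and 1146 FPKM in Hemgn-/- libraries (log2 fold change 0.47, adjusted p = 0.0768 from limma). mt-Nd2 was at 99.0, 114 and 102 FPKM in WT and at 126, 168 and 132 FPKM in Hemgn-/- libraries (0.42, adjusted p = 0.0641). In both genes each Hemgn-/- library stood above each WT library. mt-Nd4 was at 171, 229 and 151 against 241, 255 and 250 FPKM, again without overlap (0.46, adjusted p = 0.0882). mt-Nd5 was at 71.5, 89.1 and 61.2 against 88.0, 123 and 111 FPKM, where the lowest Hemgn-/- library fell just under the highest WT library (0.53, adjusted p = 0.0869). mt-Nd6, the only member on the other strand of the mitochondrial chromosome, was at 65.7, 62.4 and 63.0 FPKM in WT. It was at 64.5, 92.8 and 76.5 FPKM in Hemgn-/- libraries, with Hemgn-/- replicate 1 inside the WT range (0.27, adjusted p = 0.239). mt-Nd3 and mt-Nd4l did not pass the filter, with 0 or 1 fragment and 0 to 6 fragments per library, and no fold is given for them.

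In complex IV, mt-Co1, the catalytic subunit and the most abundant member, was at 1522, 2147 and 1446 FPKM in WT and at 1986, 2142 and 2069 FPKM in Hemgn-/- libraries. WT replicate 2 was the highest of all 6 libraries, so the groups overlapped (0.30, adjusted p = 0.237 from limma). mt-Co3, another core subunit, was at 2.80, 5.28 and 4.33 against 2.70, 4.58 and 4.06 FPKM (−0.095, adjusted p = 0.840). It was the 1 tested mitochondrial gene with a lower mean in Hemgn-/- HSPCs, on 52 to 106 fragments per library. With Gm28437 added, its log2 fold change was 0.0012.

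Over the 10 tested mitochondrial genes, 9 had a positive log2 fold change, beside 8653 of all 13739 genes tested. Of the 10, 7 had an unadjusted p under 0.05 (background 21.4% of all genes tested in either direction, 15% higher). The groups did not overlap for 6 (background 27.4% in either direction, 19.2% higher). The genes lie on 1 chromosome and are transcribed as long precursors, so they are not independent. Summed over the 12 genes, mitochondrial transcripts were at 4121, 5266 and 4139 FPKM in WT and at 5566, 5891 and 5607 FPKM in Hemgn-/- libraries, and the ratio of the means was 1.26. As a share of the FPKM total these sums were 1.12%, 1.42% and 1.10% in WT and 1.62%, 1.64% and 1.61% in Hemgn-/- libraries. WT replicate 2 stood apart from the other WT libraries in both, and no WT library reached the lowest Hemgn-/- library.

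The 16S ribosomal RNA of the organelle, mt-Rnr2, was at 852, 1572 and 758 FPKM in WT and at 1101, 1703 and 1353 FPKM in Hemgn-/- libraries (log2 fold change 0.44, adjusted p = 0.378 from limma). WT replicate 2 was high here as well. The 12S ribosomal RNA, mt-Rnr1, was at 28.1, 85.5 and 24.2 against 24.2, 46.9 and 34.5 FPKM (−0.19, adjusted p = 0.837), with WT replicate 2 again the highest.

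**Figure D2:**
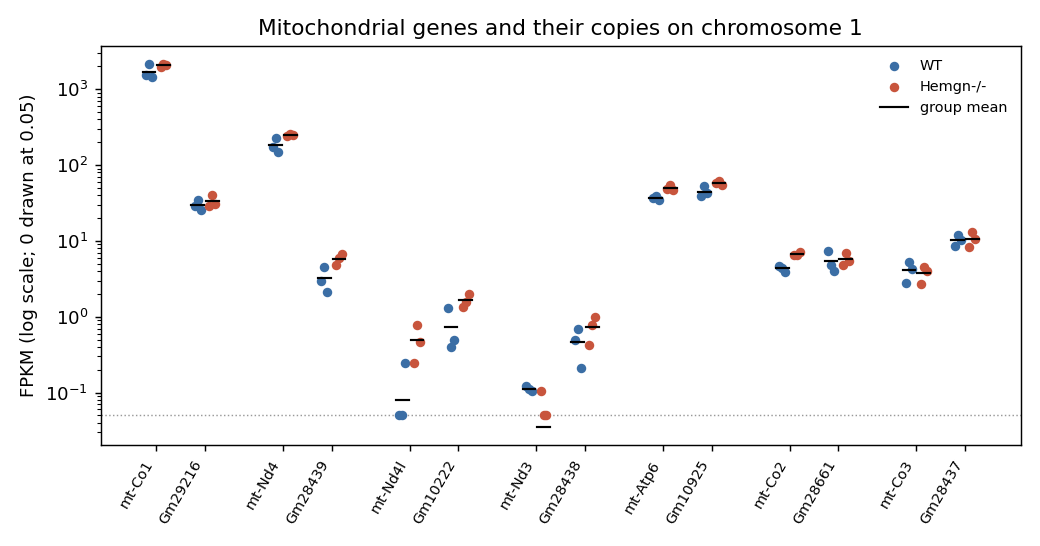
FPKM (log scale, 0 drawn at 0.05) of 7 mitochondrial genes and the copy of each on chromosome 1, ordered by how much of the gene was compared, with libraries as points and group means as bars. For mt-Atp6, mt-Co2 and mt-Co3, which are copied nearly whole, gene and copy stood at levels of the same order, and for mt-Co1 and mt-Nd4, copied in part, the copy stood far below the gene.

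The log2 fold changes of the nuclear members ranged from −0.42 to 0.37, 41 above 0 and 42 below, and the lowest adjusted p was 0.123 (limma). Over all 13739 genes tested 8653 were above 0 and 5086 below, and the counts by complex given below are to be read against these. At an unadjusted p under 0.05 there were 5 higher and 4 lower, against 15% and 6.46% of all genes tested. This split moved with the scaling, to 0 higher and 14 lower under median-ratio scaling, 0 and 10 under quantile normalization and 7 and 2 with equal FPKM totals. The groups did not overlap for 6 nuclear members higher and 5 lower in Hemgn-/- HSPCs, against 19.2% and 8.18% of all genes tested. With limma's voom on the recovered fragments there was also no nuclear call, and 2 were higher and 1 lower at an unadjusted p under 0.05. The 95% intervals of the nuclear log2 fold changes reached a median of 0.322 to either side, from 0.159 to 0.701, so a difference smaller than these could not be told from 0. The summed nuclear FPKM was 1845, 1859 and 1911 in WT and 1772, 2000 and 1888 in Hemgn-/- libraries, with a ratio of the means of 1.01.

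**Figure D3:**
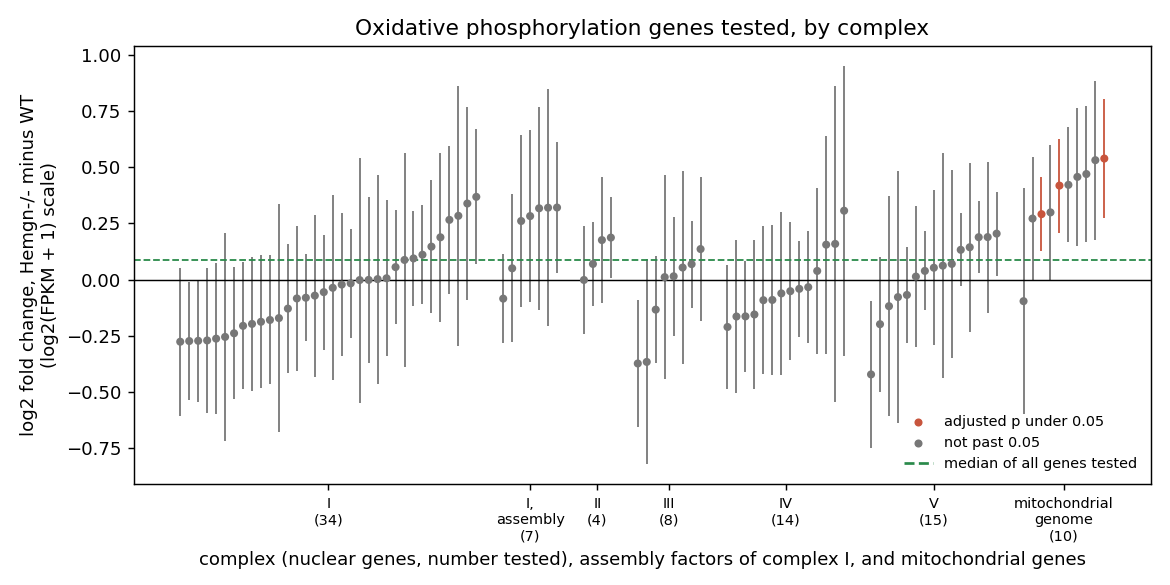
Log2 fold change with its 95% interval for the tested members (Atp5s left out), in order of size within each complex for nuclear genes and in 1 group for mitochondrial genes, with the median of all genes tested (0.087) as a dashed line. The nuclear genes lie on both sides of 0 in each complex, and the 3 red points are the mitochondrial genes with an adjusted p under 0.05.

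In complex I, 34 of the 38 nuclear subunits were tested, with a median log2 fold change of −0.045, 12 above 0 and 22 below. The nuclear core subunits, among them those that carry electrons from NADH along the flavin and iron-sulfur centres, did not pass the test. Ndufv1, which binds NADH and the flavin, was at 22.1, 21.2 and 23.7 FPKM in WT and at 21.8, 21.2 and 20.2 FPKM in Hemgn-/- libraries. Its log2 fold change was −0.080 with a 95% interval from −0.27 to 0.11. The intervals were −0.12 to 0.30 for Ndufs1, the largest iron-sulfur subunit, and −0.26 to 0.23 for Ndufs3, and both crossed 0. Ndufv2, Ndufs7 and Ndufs8, which like Ndufs1 bind iron-sulfur clusters, had log2 fold changes of −0.18, 0.27 and −0.055, with adjusted p from 0.340 to 0.816 (limma).

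Ndufb9, an accessory subunit and the most abundant nuclear member of complex I, was at 73.0, 64.2 and 67.6 FPKM in WT and at 47.2, 68.8 and 59.0 FPKM in Hemgn-/- libraries. Only Hemgn-/- replicates 1 and 3 stood below the WT range (−0.24, adjusted p = 0.336 from limma). Ndufa4l2, a hypoxia-induced relative of Ndufa4, was listed at 0.0386 FPKM in 1 library and at 0 in the other 5. The complex I assembly factors had a median of 0.28, with 6 of 7 tested above 0, beside 8653 of all 13739 genes tested. None passed, and 1 of them (Ndufaf1) had an unadjusted p under 0.05.

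Complex II, succinate dehydrogenase, also works in the citrate cycle. All 4 of its subunits were tested, with a median of 0.12. Sdha, the flavin subunit that oxidises succinate, was at 74.0, 78.5 and 77.8 FPKM in WT and at 93.8, 80.0 and 89.3 FPKM in Hemgn-/- libraries. The groups did not overlap, although the log2 fold change of 0.19 did not pass (adjusted p = 0.212 from limma). The iron-sulfur subunit Sdhb had 19.3 FPKM in both group means. The membrane anchors Sdhc and Sdhd had log2 fold changes of 0.18 and 0.070. Sdhd was the most abundant of the 4, at 169, 174 and 188 against 205, 183 and 172 FPKM, and its groups overlapped.

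In complex III, 8 nuclear subunits had a median of 0.013. Uqcrc1, a core subunit and the most abundant, was at 88.4, 77.8 and 94.0 FPKM in WT and at 93.0, 86.3 and 93.2 FPKM in Hemgn-/- libraries. Uqcrc2 and the Rieske iron-sulfur protein Uqcrfs1 had log2 fold changes of 0.015 and −0.13, and neither passed. Uqcrb, a small subunit near the quinone site that was singled out after its values were seen, had the lowest adjusted p of all nuclear members. It was at 19.7, 21.3 and 18.6 FPKM in WT and at 12.6, 17.2 and 15.8 FPKM in Hemgn-/- libraries, without overlap (−0.37, adjusted p = 0.123 from limma).

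In complex IV, 14 of 15 nuclear subunits were tested, with a median of −0.056, 4 above 0 and 10 below. Cox4i1, the general form of the regulatory subunit 4, was at 22.9, 20.4 and 24.4 against 16.0, 24.1 and 21.1 FPKM (−0.15, adjusted p = 0.582 from limma). Cox5a, another nuclear subunit, had a log2 fold change of 0.039. Cox7a2l, which takes part in joining complexes into supercomplexes, was the most abundant nuclear subunit, at 173, 201 and 167 FPKM in WT and at 158, 204 and 169 FPKM in Hemgn-/- libraries, with nearly the same range in both groups. The tissue-restricted forms were low. Cox4i2, Cox6a2 and Cox6b2 were at 0.32 to 2.28 FPKM in all libraries, and Cox7a1, the heart and muscle form, did not pass the filter.

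In complex V, 15 of 16 nuclear subunits were tested, with a median of 0.053, 10 above 0 and 5 below. Atp5b, the catalytic beta subunit and the most abundant nuclear member of all complexes, was at 192, 197 and 178 FPKM in WT and at 202, 225 and 220 FPKM in Hemgn-/- libraries. The groups did not overlap (log2 fold change 0.19, adjusted p = 0.163 from limma), and it was called in 2 of 17 alternatives, both of them rescalings to a common total. Atp5a1, the alpha subunit, was at 77.8, 86.5 and 76.9 against 86.6, 88.7 and 89.1 FPKM, where the highest WT library stood just under the lowest Hemgn-/- library (0.13, adjusted p = 0.333). Atp5c1, the central stalk subunit, was at 103, 95.9 and 106 against 99.4, 113 and 101.0 FPKM (0.039). Atp5j2, a membrane subunit singled out after its values were seen, had the most negative value of all members, at 3.90, 3.79 and 4.11 against 2.94, 2.14 and 3.05 FPKM (−0.42, adjusted p = 0.134).

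**Figure D4:**
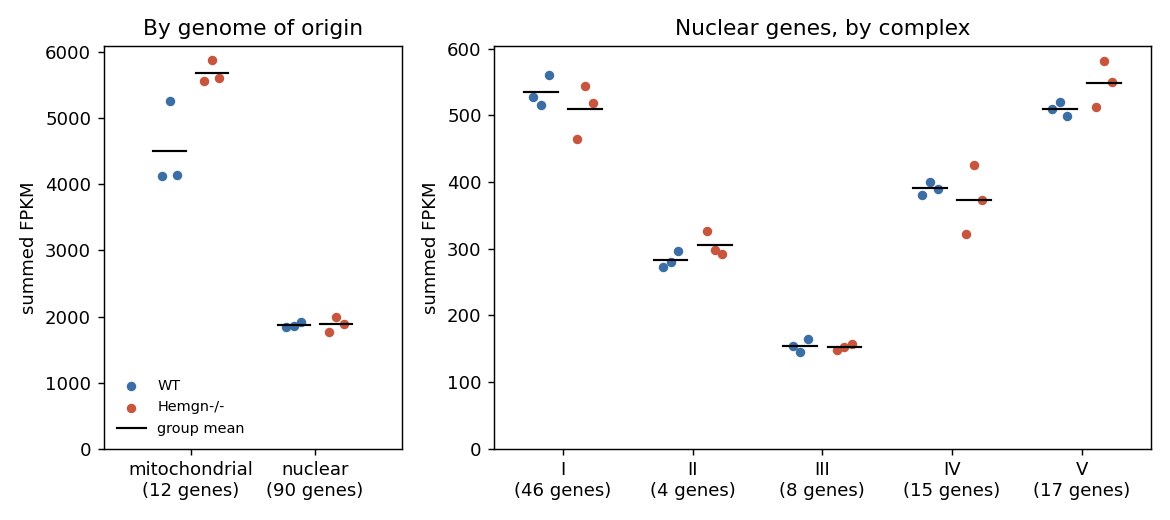
Summed FPKM per library of the 12 mitochondrial and 90 nuclear members (left) and of the nuclear members of each complex (right), with group means as bars and both axes from 0. The mitochondrial sums did not overlap between the groups, and the nuclear sum had the same mean to within 1%, with complex IV lowest in Hemgn-/- replicate 1.

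Hemgn-/- replicate 1 held the lowest value of the 6 libraries in 31 of the 83 nuclear members (37.3%), against 13.9% of all genes tested. Its summed complex IV value was 322 FPKM, and the other 5 libraries lay between 373 and 425 FPKM. Many subunit mRNAs are short. Among the 45 nuclear members with an mRNA under 1 kb the median log2 fold change was −0.061 and the median deviation of Hemgn-/- replicate 1 from the mean of all libraries was −0.22. Over all 697 tested genes of that length the same values were 0.0062 and −0.14. Log2 fold changes had medians of 0.011 in the 30 members of 1 to 2 kb and 0.11 in the 8 longer ones, beside 0.056 and 0.096 over all genes of those lengths. Fold changes thus moved with mRNA length in members and in all genes alike, and the part of length in the nuclear values was not tested. Without Hemgn-/- replicate 1 the nuclear median was 0.057 and the mitochondrial median 0.46.

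**Figure D5:**
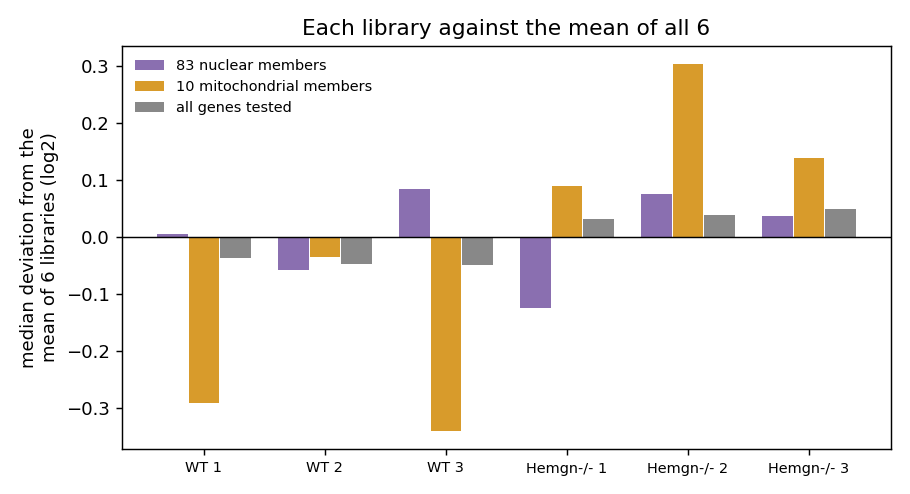
Median deviation of each library from the mean of all 6 (log2(FPKM + 1)), as bars, for the nuclear members, the mitochondrial members and all genes tested. Hemgn-/- replicate 1 was lowest in nuclear members (−0.12) while above the mean in mitochondrial ones (0.090), and WT replicates 1 and 3 were lowest in mitochondrial members.

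The sum of mitochondrial over nuclear FPKM sets both genomes side by side within a library and does not depend on the scaling of libraries. It was 2.23, 2.83 and 2.17 in WT and 3.14, 2.95 and 2.97 in Hemgn-/- libraries. The 3 Hemgn-/- values stood above the 3 WT values, and WT replicate 2 came closest to them. The highest ratio, in Hemgn-/- replicate 1, went with the lowest nuclear sum of all libraries (1772 FPKM). The mitochondrial sum of that library (5566 FPKM) was the lowest of its group, so the ratio does not measure mitochondrial transcripts alone.

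Promoters of the nuclear members share letters that the selection did not use. RefSeq promoters (GRCm38.p6, 250 bases before to 50 after the start) were found for 74 of the 90 nuclear members, 79 promoters in all. The motif of NRF1, a transcription factor of respiratory genes, spelled GCGCA and GCGC with any 1 base between them and searched on both strands, was in 25.3% of these promoters and in 4.60% of all 32851. The ETS motif CCGGAAG, which the respiratory factor GABP reads, was in 22.8% against 8.86%, and the YY1 motif AAGATGGC was in 13.9% against 2.75%. The TATA box TATAAA was in 7.59% against 13.6%. Sdha and Atp5h are shown as nuclear members whose groups did not overlap and whose promoters hold the NRF1 motif. The 250 bases before the start are given on the gene's strand, chr13:74350241-74350490 (minus) for Sdha and chr11:115419920-115420169 (minus) for Atp5h. Capitals mark NRF1 motifs, and the 7 capitals of the second run in Atp5h an ETS motif on the other strand.
Sdha: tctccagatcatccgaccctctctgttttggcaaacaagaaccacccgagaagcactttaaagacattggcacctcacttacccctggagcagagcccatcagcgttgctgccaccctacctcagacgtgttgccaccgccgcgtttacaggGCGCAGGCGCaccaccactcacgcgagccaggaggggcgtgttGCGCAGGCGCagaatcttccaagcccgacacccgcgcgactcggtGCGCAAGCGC
Atp5h: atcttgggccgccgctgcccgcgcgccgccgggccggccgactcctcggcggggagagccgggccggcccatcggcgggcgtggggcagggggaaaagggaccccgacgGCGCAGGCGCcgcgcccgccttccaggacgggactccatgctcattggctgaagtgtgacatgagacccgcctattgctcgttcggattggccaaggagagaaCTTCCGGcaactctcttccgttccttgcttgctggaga

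Of the 68 tested members with a promoter, the 18 with the NRF1 motif had log2 fold changes with a median of 0.070 (13 above 0) and the 50 without it −0.038 (19 above 0). For the ETS motif the medians were 0.0053 in 16 members with it (8 above 0) and −0.027 in 52 without (24 above 0), for YY1 0.056 in 11 (6 above 0) and −0.022 in 57 (26 above 0), and for the TATA box 0.19 in 5 (3 above 0) and −0.016 in 63 (29 above 0). Over all 13739 genes tested the median was 0.087, with 8653 above 0. These values are a description, and no test was run on them. The transcripts of the factors themselves did not pass. Nrf1 was at 8.46, 7.24 and 9.64 against 8.91, 7.76 and 8.24 FPKM, and Gabpa, the DNA-binding part of GABP, at 9.87, 9.07 and 11.8 against 12.9, 10.1 and 11.8 FPKM.

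Further lists of the pathway held few calls, to be read against the 4.37% of all genes called higher and 2.09% called lower. Of 12 tested regulators of mitochondrial biogenesis 1 passed, Myc, a growth-promoting transcription factor, which rose from 49.6, 47.6 and 53.6 FPKM in WT to 72.2, 68.8 and 69.6 FPKM in Hemgn-/- libraries (log2 fold change 0.48, adjusted p = 0.0077 from limma). Each Hemgn-/- library stood above each WT library, and Myc was called in 16 of 17 alternatives. Ppargc1a, a coactivator of biogenesis, was at 0.453 FPKM or less and not tested. Of 35 tested genes for expression of the mitochondrial genome 2 rose, Lrpprc (0.48, adjusted p = 0.0431) and Fastkd2 (0.69, adjusted p = 0.0417), which bind mitochondrial RNA. Lrpprc, known to stabilise mitochondrial mRNAs, was at 5.19, 4.96 and 4.32 against 6.68, 7.24 and 7.37 FPKM, and the groups did not overlap. Lrpprc was called in 6 and Fastkd2 in 5 of 17 alternatives. Tfam, which packs and transcribes mitochondrial DNA, had a log2 fold change of 0.15, and the mitochondrial RNA polymerase Polrmt 0.38, neither past the threshold (adjusted p = 0.471 and 0.178).

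Of 38 tested assembly factors outside the symbol rule 1 rose, Coa4, an assembly factor of complex IV, from 4.55, 3.60 and 3.69 to 6.10, 7.52 and 6.82 FPKM (0.66, adjusted p = 0.0211 from limma). Among 10 tested genes for defence against oxygen radicals 1 fell, the peroxidase Prdx5, from 475, 481 and 497 FPKM in WT to 312, 385 and 341 FPKM in Hemgn-/- libraries (−0.49, adjusted p = 0.0094). Coa4 was called in 10 and Prdx5 in 14 of 17 alternatives. No gene was called among 19 mobile carriers and electron entry genes, 18 citrate cycle genes, 8 inner membrane carriers and uncoupling genes and 2 mitochondrial ribosomal RNAs by limma. At an unadjusted p under 0.05 these lists held 1 higher, then 2 higher and 1 lower, then 1 higher, and 0 in the ribosomal RNAs, against 15% higher and 6.46% lower over all genes tested. By the same count the list for expression of the mitochondrial genome held 8 higher and 1 lower, the assembly factors 6 and 1, the biogenesis regulators 4 and 0 and the oxygen radical genes 2 and 1. The medians of the lists, leaving out the ribosomal RNAs, lay between 0.083 and 0.163, beside 0.087 over all genes tested.

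FPKM divides by the exon length of the annotation, which was at least 2 times the principal mRNA in 28 of the 90 nuclear members. For Atp5l, a membrane subunit of complex V, the exon length was 6443 bases and the mRNA 544 bases. A stretch of at least 100 bases was shared with another annotated gene in 31 of the 90. This took in most of Atp5g2 (86.4% of such stretches) and Atp5l (69.0%), so the levels of these genes are uncertain. Fold changes use the same length in every library, but whether shared reads altered them was not tested for the nuclear members. Across the 90 genes the mean FPKM was nearly unrelated to the ratio of the 2 lengths (Spearman's rho 0.0059) or to the share of stretches found elsewhere (0.077), as a description over genes that share their libraries.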

How the data were processed

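RNA was measured in 3 WT and 3 Hemgn-/- libraries of donor HSPCs, grouped by the genotype in the labels. The authors deposited FPKM values per gene. The submitters' processing notes list Bowtie2 2.2.3, HISAT2 2.1.0, TopHat2, HTSeq 0.6.0 and GRCm38, and the annotation release is not given in the sources used here. Of 24965 Ensembl identifiers 24921 matched GENCODE M21. Depth was recovered from the steps between FPKM values: of 13476 genes with at most 100 fragments, 95.7% came out whole within 0.05 in all libraries. Genes above 1 FPKM in at least 1 library were compared as log2(FPKM + 1) with limma 3.58.1 (R 4.3.3; lmFit, eBayes with trend, no covariate), two-sided, with Benjamini-Hochberg adjustment. The 17 alternatives were a pseudocount of 0.1, 2 other filters, 4 scalings, no trend, voom, a replicate block, each library left out and, chosen after seeing the data, chromosome 1 copies added. Members and lists were chosen with earlier results of these data known. Genes named by rule were the mitochondrial members, complex II, the core subunits, tissue-restricted forms, called genes and the most abundant per complex; other genes were chosen after their values were seen. One gene of this rule is not reported here. Per-sample columns without a sample numbered 0. Replicates differed by more than sampling noise (chi-square per gene 17.5 to 35.2). Figures were drawn with Python 3.11.15 and matplotlib 3.10.9.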

Additional observations from a re-analysis of the deposited data

How the results depend on the processing

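Of all oxidative phosphorylation genes, 3 were called higher and 0 lower. Higher calls numbered 0 under median-ratio scaling, quantile normalization, no trend and no filter, 8 after rescaling to the same FPKM total and 9 when that total left out the mitochondrial chromosome, and 0 to 5 with each library left out. All genes called higher numbered 341, 368, 237, 309, 1062 and 1142 in the same order (600 in the report) and 223 to 451 with a library left out. Those called lower numbered 157 with no filter, 153 without a trend and 150 to 237 with a library left out (287 in the report). The share of calls that were higher ran from 46.9% under median-ratio scaling to 82.9%. The complex II median (0.12) was 0.024 under median-ratio scaling, 0.055 under quantile normalization, and 0.21 and 0.22 under the 2 rescalings. The complex V median including mt-Atp6 and Atp5s was −0.026, −0.014, 0.14 and 0.14 in that order, and −0.019 without Hemgn-/- replicate 2. The cause was not tested. The mitochondrial median stayed 0.26 to 0.39 above that of all genes in all 17 alternatives. Dropping the trend or adding the replicate block could not move this difference (0.33, as in the report). Rescaling whole libraries could move it little, since both medians shift together. Replicate numbers did not pair the libraries (correlations of deviations −0.043, −0.0094 and 0.011). With the replicate block 4 members were called higher, mt-Atp6, mt-Nd1, mt-Nd2 and mt-Nd5, and over all genes 410 higher and 226 lower. With 3 libraries a group, small differences in nuclear genes could not be detected.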
